A study of Olea europaea with 24 samples.

Results

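Among 31784 gene model rows measured in olive tree branches, 2 were raised on 23 May in watered and dried trees alike by the limits applied here. These rows, Oeu005081.1 and Oeu004341.1, are the subject of the report. They were selected on their measured values. For every group of arm and day the median of log2(scaled count + 1) over its 3 trees was taken, where the scaled count is the authors' library-scaled value. A row was kept where the medians of both 23 May groups were at least 5, lay within 1.5 of each other, and exceeded the highest median of the 6 other groups by 1.5 or more. This last difference is called the gap. Up to 150 rows could have been taken. The height of both rows on 23 May over the other days is therefore a property of the selection and is described without a test.

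RNA was sequenced from branches of 6 olive trees (Olea europaea), each sampled on 7 May, 23 May, 6 June and 29 July, that is 0, 16, 30 and 83 days after the first sampling. The labels give irrigation at 1.2 litres a day for all 6 trees, that is for watered trees 3, 9 and 11 and for dried trees 4, 8 and 12. For drying, the latter received 1 litre per week during 2 weeks and no water during the 2 weeks after these, and when these weeks fell relative to the samplings is not labelled. The 24 libraries form 8 groups of 3 trees, and the cultivar and age of the trees are not given in the sources used here. Poly-A RNA of a whole branch was measured, so that fewer cells of a type and less RNA per cell cannot be told apart.

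The title of the series concerns the use of carbon reserves under heat, drought and recovery. Woody branches store carbon as starch, which is built from sucrose delivered by the leaves and broken down again when growth or stress requires sugar. Sucrose synthase cleaves sucrose, hexokinase phosphorylates the resulting hexoses, starch synthase extends the glucan chains, and amylases release sugar from them. The labels do not say which sampling day was hot. The IDs of both rows come without gene names, and 0 of the gene model IDs occur in the gene table of the olive reference, so no role is known here for either.

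Total counts ran from 6675360 to 14122826 per library, but the count that informs low rows varied far more. The 29 rows that held over 1% of any library took 25.7% to 86.5% of the counts on 23 May and up to 91.0% on other days. The count outside them was lowest in dried tree 8 on 23 May, at 988324, and highest in watered tree 3 on 6 June, at 8938831. A single count was therefore worth 0.33 to 5.46 scaled units, depending on the library. Both rows are low. Over all libraries their mean abundances were -0.89 log2 CPM for Oeu005081.1 and 0.27 log2 CPM for Oeu004341.1, and 8.48% and 26.8% of the tested rows lay lower.

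Oeu005081.1 was near or at 0 on 3 of the days and high on 23 May. On that day its levels, as log2(scaled count + 1), were 6.84, 5.58 and 2.52 in watered trees 3, 9 and 11, and 6.06, 5.07 and 5.53 in dried trees 4, 8 and 12. On 7 May they were 1.41, 0.00 and 0.55 in the watered trees and 0.65, 0.00 and 0.00 in the dried trees. The 23 May levels of the arms overlapped, and watered tree 11 was the low library of that day. On 6 June the levels were 0.41, 0.00 and 1.58 in the watered trees and 0.00, 0.00 and 3.18 in the dried trees. On 29 July they were 0.96, 0.96 and 1.58 in the watered trees and 1.50, 0.78 and 0.80 in the dried trees. Of the 6 libraries of 23 May, 5 lay above all 18 others, and the exception, watered tree 11, lay below dried tree 12 of 6 June. Over all 31784 gene model rows, at least 5 of the 6 libraries lay above all others in 0.164% and all 6 did in 0.0283%. As the rows were selected on this day, nothing is read from their place among these.

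The counts behind these levels were small outside 23 May. On 23 May the rounded counts were 251, 14 and 4 in watered trees 3, 9 and 11 and 68, 6 and 32 in dried trees 4, 8 and 12. Summed over libraries, there were 375 counts on 23 May and 29 on the other days together, with 0 counts in 6 of the 18 other libraries. A count of 0 did not mean the same in each of them. In dried tree 4 on 6 June, 3 counts would have been worth a level of 4.12, and in watered tree 9 on 7 May 3.56. A count of 0 there could therefore hide levels below these. In the other 4 libraries at 0 this limit lay between 1.52 and 2.61. These limits and the intervals below cover counting error only.

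As group means, Oeu005081.1 stood at 4.98 ± 2.22 (SD, n = 3, as for all group means here) in watered and 5.55 ± 0.50 in dried trees on 23 May. The other 6 groups, from low to high, were dried 7 May at 0.22 ± 0.38, watered 7 May at 0.66 ± 0.71, watered 6 June at 0.67 ± 0.82, dried 29 July at 1.03 ± 0.41, dried 6 June at 1.06 ± 1.84 and watered 29 July at 1.17 ± 0.36. Each of these 6 groups overlapped its neighbours in this order. The first step without overlap between neighbours was that from watered trees on 29 July to watered trees on 23 May. Dried trees of 6 June, with a maximum of 3.18, still overlapped watered trees of 23 May, with a minimum of 2.52.

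Oeu004341.1 was detected on every day and stood less far above its other levels on 23 May. Its levels on that day were 6.76, 5.36 and 2.52 in watered trees 3, 9 and 11 and 5.44, 5.47 and 5.07 in dried trees 4, 8 and 12. On 7 May they were 2.68, 0.00 and 4.08 in the watered trees and 2.47, 2.81 and 0.00 in the dried trees. Watered tree 11 thus went against the other trees, with a lower level on 23 May than on 7 May and counts of 4 and 34. On 6 June the levels were 3.31, 2.14 and 4.09 in the watered trees and 2.69, 3.80 and 4.19 in the dried trees. On 29 July they were 2.25, 3.01 and 1.87 in the watered trees and 2.48, 2.51 and 3.14 in the dried trees. Again 5 of the 6 libraries of 23 May lay above all 18 others, while watered tree 11 lay within their range of 0.00 to 4.19.

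The rounded counts of Oeu004341.1 on 23 May were 237, 12 and 4 in watered trees 3, 9 and 11 and 44, 8 and 23 in dried trees 4, 8 and 12. Its counts summed to 328 on 23 May and to 190 on the other days, with 0 counts in 2 of the 18 other libraries. The group means were 4.88 ± 2.16 in watered and 5.33 ± 0.23 in dried trees on 23 May. Those of the other groups were 1.76 ± 1.53 in dried and 2.25 ± 2.07 in watered trees on 7 May, 3.56 ± 0.78 in dried and 3.18 ± 0.98 in watered trees on 6 June, and 2.71 ± 0.37 in dried and 2.38 ± 0.58 in watered trees on 29 July. Ordered by mean, every group overlapped the next, including dried trees of 6 June and watered trees of 23 May.

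**Figure D1:**
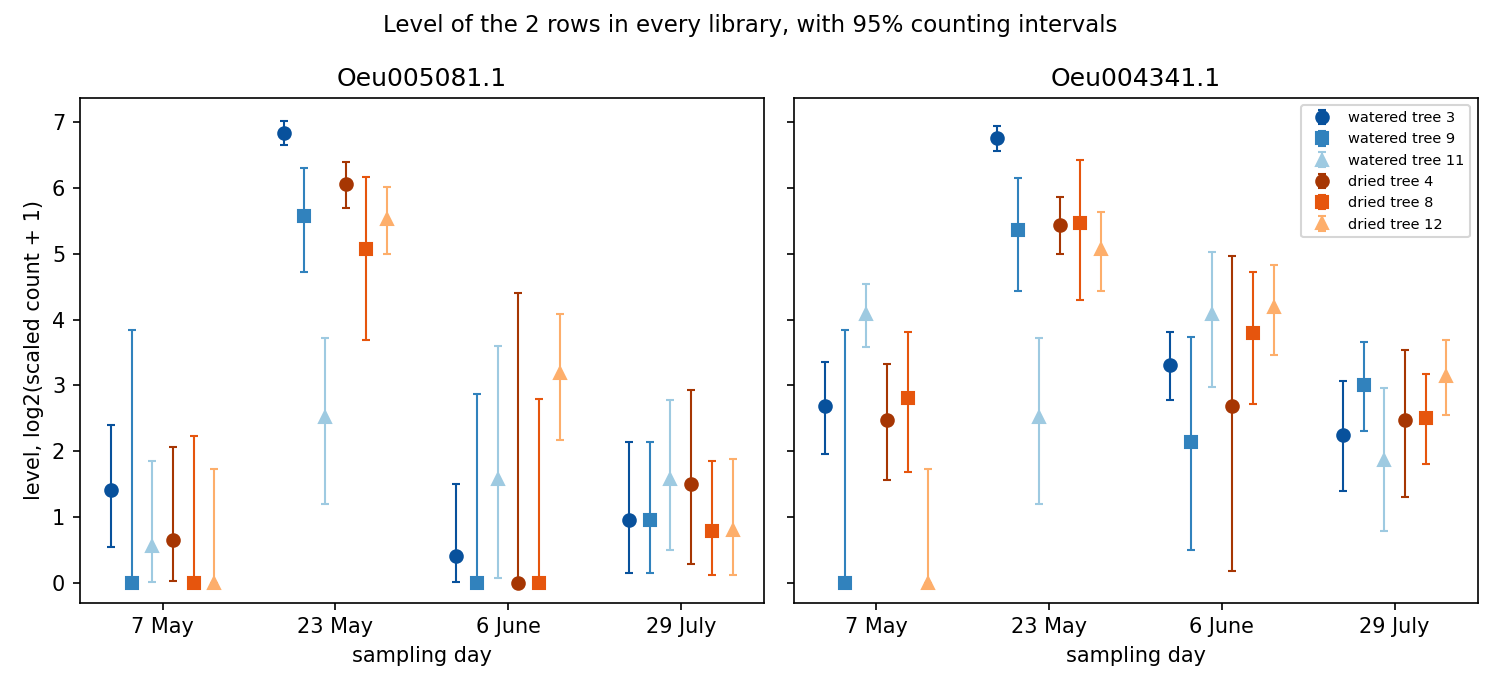
Level of Oeu005081.1 (left) and Oeu004341.1 (right) in each of the 24 libraries, as log2(scaled count + 1), by sampling day, where points are single trees and bars are exact Poisson 95% counting intervals. On 23 May 5 of 6 trees stood at 5.07 or higher for both rows, and watered tree 11 stood at 2.52.

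Scaling bears on these levels most where libraries were shallow. In dried tree 8 the counts of Oeu004341.1 were 6, 8, 8 and 13 on the 4 days in order, while its levels were 2.81, 5.47, 3.80 and 2.51. In that tree 1 count was worth 5.41 scaled units on 23 May. The exact Poisson 95% interval of its 23 May level was 4.30 to 6.43 for Oeu004341.1 and 3.69 to 6.16 for Oeu005081.1. In watered tree 9, where 1 count was worth 3.34 units on 23 May, the intervals were 4.44 to 6.15 and 4.73 to 6.31. The low level of watered tree 11 had an interval of 1.20 to 3.72 for either row, which did not reach the 23 May intervals of the other trees for Oeu004341.1 or those of the other trees except dried tree 8 for Oeu005081.1. Watered tree 9 was also the library least like the rest of 23 May, with Pearson correlations across genes of 0.48 to 0.67 with the other 5 libraries, and genes are not independent replicates. The part of depth and of this library in the levels was not tested apart from leaving libraries out.

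In each tree the pair had similar counts on 23 May. The ratio of the counts of Oeu005081.1 to those of Oeu004341.1 was 1.06, 1.17 and 1.00 in watered trees 3, 9 and 11 and 1.55, 0.75 and 1.39 in dried trees 4, 8 and 12. Their counts thus rose and fell together over the trees of that day, from 4 each in watered tree 11 to 251 and 237 in watered tree 3. The rows share library depth, and being selected on this day they share the selection. The expected counts of both were exact whole numbers in all 24 libraries.

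Few rows were near the limits. Of the 31784 rows, 10901 met the limits on range and level, and their median gap was -0.74, which means that the typical row had at least 1 other group above its lower 23 May median. The gap was above 0 in 724 of them and at least 1 in 16. Oeu005081.1 had a lowest 23 May median of 5.53, a highest other median of 0.96 and a gap of 4.57. Oeu004341.1, just inside the limit, had a lowest 23 May median of 5.36, a highest other median of 3.80 and a gap of 1.56. Oeu002964.1, the first row outside, had 7.82, 6.33 and 1.49 for these quantities. The limit on level removed more rows than that on range, since 28 rows had a gap of 1.5 or more and 26 of them had a lower 23 May median between 1.76 and 4.56. With the same limits, 8 rows were high on 7 May in both arms, 19 on 6 June and 73 on 29 July. On 23 May 15 rows were high in the watered arm alone and 63 in the dried arm alone.

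**Figure D2:**
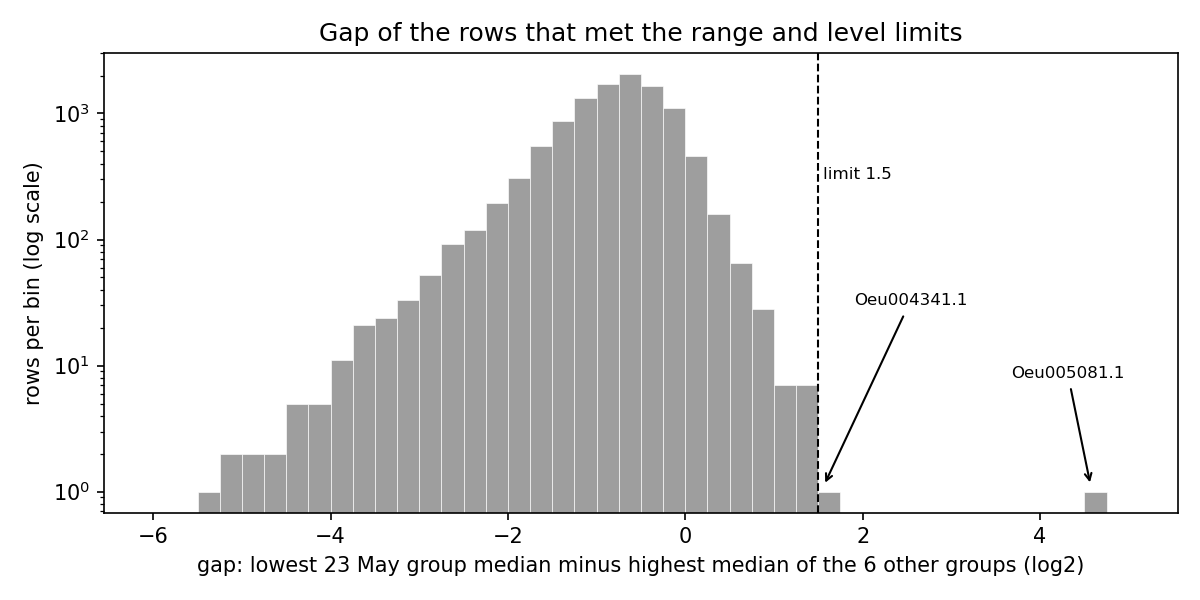
Histogram of the gap, in log2 units, over the 10901 rows that met the limits on range and level, with the number of rows per bin on a log axis and the limit of 1.5 as a dashed line. The rows at 1.56 and 4.57 are the only ones beyond the limit, and the median is -0.74.

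Oeu002964.1 was more abundant than either selected row and showed a like profile. As the next row by the same gap, it owes this likeness on 23 May to the ranking, and it is no independent case. Its levels on 23 May were 9.65, 6.61 and 7.82 in watered trees 3, 9 and 11 and 8.62, 8.03 and 8.76 in dried trees 4, 8 and 12. Its other 18 libraries ran from 4.21 to 7.56 with a median of 5.88. Here the low library of 23 May was watered tree 9, at 29 counts, and not watered tree 11, and again 5 of 6 libraries stood above all others. At least 5 of 6 did so in 0.164% of all gene model rows.

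Which changes the rows showed on the days not used as the high set was asked with edgeR's quasi-likelihood test over 29107 rows, with Benjamini-Hochberg adjusted p under 0.05 as the call. Both rows passed the filter on low counts, which also used the libraries of the high set. In the groups compared, Oeu005081.1 had 1 to 8 pooled counts. With the libraries of a day alone, it passed the filter on none of the days compared. So few counts left little room for a call, and the lack of calls does not show that this row was unchanged. Neither row was called in any of the 7 comparisons, and 1 of the 14 tests had an unadjusted p under 0.05. DESeq2 also called neither row, with no adjusted p for 3 of the 14 tests. The rule still bears on these comparisons, because it sets a ceiling on the levels of the days compared.

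On 7 May, dried and watered trees did not differ detectably in either row. The log2 fold changes of dried over watered trees were -1.72 ± 1.47 (SE, as for all fold changes here) for Oeu005081.1 and -1.29 ± 1.07 for Oeu004341.1, each with an edgeR adjusted p of 1. In this comparison edgeR called 0% of all rows. Its unadjusted p lay under 0.05 for 990 rows, and DESeq2 called 77. On 29 July the changes were -0.31 ± 1.16 and 0.34 ± 1.02, again each with an edgeR adjusted p of 1. The share that edgeR called was 0% here too. Its unadjusted p lay under 0.05 for 41 rows, and DESeq2 called 17. Standard errors above 1 leave room for differences of several fold. On 29 July this room runs in either direction, and on 7 May mainly towards lower levels in dried trees.

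On 6 June, Oeu005081.1 had 8 counts in dried and 2 in watered trees, and all 8 came from dried tree 12. The ratio of pooled rates was 9.19, with an exact 95% counting interval of 1.83 to 88.9. The fitted log2 fold change was 2.58 ± 1.43 with an edgeR adjusted p of 0.278. Without tree 12 the dried trees had 0 counts, so the positive direction rested on that library. Oeu004341.1 had 26 counts in dried and 37 in watered trees, and its log2 fold change was 0.50 ± 1.06 with an edgeR adjusted p of 0.842. Of all rows 0.103% were called in this comparison, 7059 had an unadjusted p under 0.05, and the median log2 fold change of all rows was -0.25.

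Within the dried arm, 6 June against 7 May gave the lowest adjusted p of the tested comparisons. Oeu005081.1 had 8 counts on 6 June and 1 on 7 May, a ratio of pooled rates of 19.5 with an exact 95% counting interval of 2.61 to 864. The fitted log2 fold change was 3.65 ± 1.45 with an edgeR adjusted p of 0.126, and it too rested on tree 12. Oeu004341.1 had 26 and 14 counts and a log2 fold change of 1.93 ± 1.10 with an edgeR adjusted p of 0.263. Its 3 dried trees stood at 2.69, 3.80 and 4.19 on 6 June and at 2.47, 2.81 and 0.00 on 7 May, with overlap between the days. Of all rows 1.09% were called and 7575 had an unadjusted p under 0.05, as Oeu005081.1 did. The median log2 fold change of all rows was -0.20.

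The other changes between days were about as large as their errors or smaller. In watered trees, 6 June against 7 May gave -0.66 ± 1.40 for Oeu005081.1 and 0.14 ± 1.05 for Oeu004341.1, each with an edgeR adjusted p of 1. In the same arm, 29 July against 7 May gave 0.36 ± 1.25 and -0.92 ± 1.03, with edgeR adjusted p of 0.986 and 0.957. In dried trees, 29 July against 7 May gave 1.78 ± 1.45 and 0.71 ± 1.06, each with an edgeR adjusted p of 1. By 29 July, therefore, neither row differed detectably from its 7 May level in either arm. In these 3 comparisons 0% of all rows were called by edgeR. In the order given, 2623, 2390 and 906 rows had an unadjusted p under 0.05, and DESeq2 called 490, 738 and 46.

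For the contrasts that the selection used, the fitted values are given as a description. In dried trees, 23 May against 7 May gave log2 fold changes of 7.35 ± 1.42 for Oeu005081.1 and 3.54 ± 1.12 for Oeu004341.1. The former rests on 106 counts against 1, a ratio of pooled rates of 239 with an exact 95% counting interval of 42.0 to 9534. In watered trees the changes were 5.86 ± 1.28 and 2.72 ± 1.05. Between the arms on 23 May, dried over watered trees gave -0.23 ± 0.98 and -0.46 ± 0.99. The limit on range in the selection keeps the arm medians of this day close.

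The authors' deposited table of comparisons lists both rows. For ctrl_0 against ctrl_1, the authors' deposited table gives log2 fold changes of -5.72 for Oeu005081.1 and -2.79 for Oeu004341.1. For ctrl_0 against drought_1, the authors' deposited table gives -7.53 and -3.57. Over all rows, the fold changes of these comparisons in the authors' deposited table run opposite to the fitted changes from 7 May to 23 May, so negative values there stand for a higher level in the second-named group. These contrasts are of the kind the selection used, and their values are given as a description. For ctrl_2 against drought_2, the authors' deposited table gives -4.28 and -1.66, with adjusted p of 0.200 and 0.540. Across rows, its fold changes run opposite to the fitted dried over watered changes of 6 June (Pearson r -0.92). Negative values there thus stand for a higher level in drought_2. For after_3 against ctrl_3, the authors' deposited table gives 1.41 and 1.35, with an adjusted p of 1 for each. Over 28610 rows, the fold changes of this comparison correlated with the fitted dried over watered changes of 29 July at Pearson r 0.48. Positive values there would thus stand for a higher level in after_3. The counts of 29 July gave -0.31 for Oeu005081.1 in dried over watered trees, which is the opposite sign. The reason was not tested, and no direction is read for this row. Neither row has a value in the authors' deposited table for ctrl_1 against drought_1.

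The same gap was computed for the carbohydrate rows that the authors named, 86 of which, in 17 families, are in the scaled table. None met all the limits. The gap was above 0 in 6 of the 86, which were taken without any limit on range or level. It was above 0 in 724 of the 10901 rows above that met both of these limits. All 6 named rows met them too, while some of the 86 did not. The shares are therefore not on like terms, and nothing is read from the count of named rows. The median gap of the 86 was -1.23, without any limit on range or level, against -0.74 over those 10901 rows. The 6 were sucsynthase3 at 1.31, hexokinase6 at 0.53, starchsyn3 at 0.51, starchsyn2 at 0.20, hexokinase2 at 0.11 and starchsyn6 at 0.10. By family these were 1 of 11 sucrose synthase rows, 2 of 8 hexokinase rows and 3 of 10 starch synthase rows. In all rows of the other families the gap was at or under 0. Among them were the 13 rows named bamylase, the 7 named agp, the 5 named invertase and the 5 named gpt. Most of the 10901 rows also had such a gap, so nothing is read from this for any family.

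The row with the largest gap among the named ones, sucsynthase3, carries the name of a sucrose-cleaving enzyme. Its levels on 23 May were 9.15, 4.61 and 9.02 in watered trees 3, 9 and 11 and 8.79, 7.80 and 8.89 in dried trees 4, 8 and 12. The other 18 libraries ran from 5.21 to 8.19, with a median of 7.20. Watered tree 9, at 7 counts, stood below all of these, and 4 of the 6 libraries of 23 May stood above them. Watered tree 11, low for both selected rows, was among the 3 highest for sucsynthase3.

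The starch synthase row starchsyn3 was high in every tree on 23 May. Like the other named rows shown, it was picked by its gap on that day, so this height is described without a test. Its levels were 8.99, 8.74 and 8.58 in watered trees 3, 9 and 11 and 8.85, 8.46 and 8.79 in dried trees 4, 8 and 12, all above the 18 other libraries, which ran from 6.47 to 8.42. The margin was narrow, since the counting interval of dried tree 8 was 8.09 to 8.81 and held the highest other level. Other scalings were not tried for starchsyn3. Over all gene model rows, all 6 libraries of 23 May lay above all others in 0.0283% and at least 5 did in 0.164%. Of the other 4 rows, 5 of 6 libraries of 23 May stood above all others for starchsyn2, 4 for hexokinase6, and 3 each for hexokinase2 and starchsyn6. None of these 6 named rows, nor Oeu002964.1, was called by edgeR in the 7 comparisons of the other days, where the lowest adjusted p was 0.391. Rows of one family can share reads, and the expected counts of starchsyn3 were not whole in 23 of 24 libraries.

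**Figure D3:**
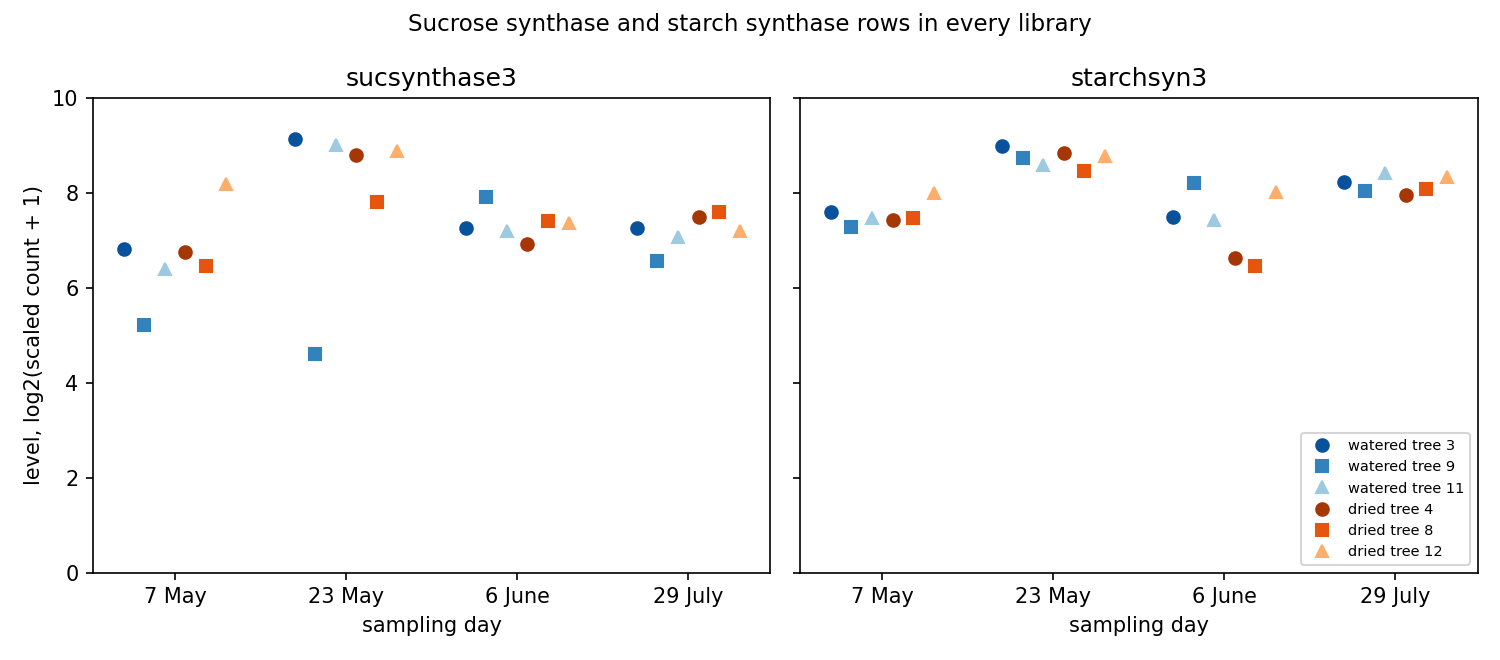
Level of sucsynthase3 (left) and starchsyn3 (right) in each of the 24 libraries, as log2(scaled count + 1), by sampling day, with 1 point per tree. For starchsyn3 the 6 libraries of 23 May span 8.46 to 8.99 and lie above the rest, while for sucsynthase3 watered tree 9 lies at 4.61 on that day.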

How the data were processed

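The tools named per the submitters' processing notes are cutadapt, Bowtie2, RSEM, limma and DESeq2. Their versions and settings, the strandedness and the genome build are not given in the sources used here. Expected counts of 50663 rows make up the first deposited table, and they were rounded to whole counts for testing. The second deposited table holds signal values for 31870 rows, each the rounded count times 1 factor specific to its library. Another deposited table lists the authors' own log2 fold changes with their adjusted p-values. Per-sample columns not used numbered 0.

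The selection was computed on the scaled values with a pseudocount of 1. Tests used edgeR's quasi-likelihood fit (version 4.0.16, R 4.3.3) on all 24 libraries, with TMM factors, a group-wise filterByExpr, a mean for each group, and Benjamini-Hochberg adjustment over 29107 rows. Standard errors were derived from F, as the size of the log2 fold change divided by its root. The steps were tested on simulated counts, in which only rows more abundant than the selected ones were changed. That run gives no measure of power for rows as low as these. Counting intervals are exact Poisson for levels and exact binomial for ratios of pooled rates, and the limit for 0 counts is 3 counts.

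The rows, lists and tests were chosen with earlier results of these data known. The tests had been planned for up to 150 rows, and 2 met the limits. Rows were to be named by rule: those with the largest gap and level, that at rank 75, which does not exist, the last inside and first outside, and author-named rows with a gap above 0. Lists of cell type markers could not be matched to IDs without names.

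Replicates are separate trees, and no pair of libraries held identical counts (0 pairs). The same trees were sampled on each day, so libraries of different days are paired by tree, whereas the arms hold different trees. Deviations from group means within a tree correlated by -0.03 to 0.18 on average. Alternatives were DESeq2 1.42.0, edgeR with the size factors of DESeq2, a filter of 1 count in total, limma 3.58.1 on the scaled values, each tree left out, the watered 7 May library of tree 9 left out, dropping the 29 abundant rows, fitting each day by itself, the tree as a block, and, for the selection, other scalings, pseudocounts of 0.5 and 4, and means over trees. Leaving out 23 May libraries of trees 9 and 11, and the 7 May library of tree 9 with them, was added after seeing the data.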

Additional observations from a re-analysis of the deposited data

How the results depend on the processing

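Membership depended on the processing. Of the 2 selected rows, 1 met the limits with TMM scaling, with scaling to the total outside the abundant rows and with a pseudocount of 4, and 0 did with means over trees. Leaving out a tree left 0 to 2 of them (0 without tree 3 or tree 9), and leaving out the watered 23 May library of tree 9, alone or with its 7 May library, left 0. Over all gene model rows 4 met the limits with TMM scaling, 1 with a pseudocount of 4 and 1 with means. Leaving out a tree gave 0 to 13 rows (13 without tree 11), leaving out the watered 23 May library of tree 11 gave 10, and leaving out that of tree 9, alone or with its 7 May library, gave 5. The cause was not tested. The gap, which selection set above 0, was 2.78 to 4.99 for Oeu005081.1 and 0.14 (without tree 3) to 2.05 for Oeu004341.1 in these settings. Its sign here is no test.

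The number of selected rows without overlap between 23 May and the other days was 0 with all libraries, 0 to 2 with a tree left out (2 without tree 11, 1 without tree 12), and 2 without the watered 23 May library of tree 11. Over all gene model rows the share without overlap was 0.0283%, 0.110%, 0.0944% and 0.0724% with all libraries, without tree 11, without tree 12 and without that library, and nothing is read from the selected rows' count. This share also depended on the scaling. With all libraries it fell to 0.0063% with TMM scaling and to 0.0031% with scaling to the total outside the abundant rows.

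In the 7 comparisons of the other days neither row was called in any of the 14 alternative fits, and the lowest adjusted p was 0.102, by DESeq2, whose adjusted p was not available for 3 of the tests. Leaving out a tree moved the log2 fold change of Oeu005081.1 on 6 June over a range of -2.82 to 3.51 between arms and -2.18 to 5.76 against 7 May in dried trees. The lowest value of each is that without tree 12, where all dried counts of 6 June were 0, so that it depends on the prior count. Without tree 12 the change of Oeu004341.1 against 7 May in dried trees fell from 1.93 to 0.84. With limma on the scaled values the changes of Oeu005081.1 were 0.40 between arms and 0.84 against 7 May, in place of 2.58 and 3.65. With the tree as a replicate block the paired changes in dried trees were 3.68 and 1.96, with edgeR adjusted p of 0.175 and 0.339, and 0 calls in each within-arm comparison. Arms could not be paired. With the libraries of a day alone neither row passed the filter on 7 May and 6 June, and only Oeu004341.1 did on 29 July.

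The background of calls also varied. On 6 June between arms, edgeR called 30 rows, DESeq2 4060, edgeR without the watered 7 May library of tree 9 3405, and edgeR with a tree left out 0 to 2236. In dried trees, 6 June against 7 May gave 316, 4323, 3461 and 0 to 3748 in the same order, and 0 with the replicate block.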
